A study of Homo sapiens with 24 samples.

Results

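Peaks of N6-methyladenosine (m6A) were compared between wild-type (WT) and METTL3 knockout (KO) U2OS cells that had received no UV. U2OS is an established human osteosarcoma line. The comparison used 12 of the 24 samples of the series, which formed 4 groups of 3 libraries: RNA immunoprecipitated (IP) with an antibody against m6A and its matching input, from WT cells and from METTL3 KO cells. Cells of both genotypes were grown with 10 µM BrdU, a thymidine analogue, before collection, and polyadenylated RNA was sequenced as 50-base single-end reads. The labels do not say whether the replicates are separate cultures, how many KO clones were used or which part of METTL3 was disrupted. The values analysed were 2 deposited peak lists, 1 for each genotype, covering its 3 replicates. The WT list held 13989 peaks on 7218 transcripts of 7135 genes, and the KO list held 13852 peaks on 7026 transcripts of 6967 genes, 27841 peaks in all. A peak is a stretch of a RefSeq transcript, given by its first and last base along the transcript, with no score or read count. The depth behind a peak is therefore unknown. With 1 list per genotype there are no replicate values, so no test was made and nothing can be said of replicate spread. Intervals are 95% Wilson intervals and cover counting error alone. From these lists, a transcript without a peak cannot be told apart from one with too little RNA for a peak to be called.

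METTL3 is the catalytic subunit of the nuclear complex that methylates adenosines inside messenger RNA, mostly in the sequence context of GGAC and often near the stop codon and in long internal exons. METTL14 is its partner in the catalytic core, and WTAP, VIRMA, ZC3H13, CBLL1 and the RBM15 proteins make up the regulatory part. METTL16, another methyltransferase, modifies the MAT2A mRNA, which encodes the enzyme that makes the methyl donor S-adenosylmethionine. PCIF1 methylates the adenosine next to the cap where a messenger begins with A, and antibodies against m6A bind that mark as well. Peaks at the first bases of a transcript are for that reason described apart from internal ones.

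The 30 bases around the gene start are shown for 8 genes with a peak from base 1 of the transcript: the 3 with the widest such peak shared by the genotypes, 2 of the 3 with the widest in WT without a KO overlap, and the 3 with the widest in KO without a WT overlap. Sequences are from the RefSeq promoter table (GRCh38.p14), read 5′ to 3′ on the strand of the gene. The capital marks the first base of the gene, after 15 bases that precede it. The gene's start in that table can differ from the start of the listed transcript. WDR26, a subunit of a ubiquitin ligase (chr1:224434783-224434812, minus strand), had its start peak at bases 1 to 513 in WT and 1 to 310 in KO. ITGAV, the integrin alpha V chain (chr2:186590041-186590070, plus strand), had peaks at 1 to 405 and 1 to 100, and MAP3K3, a kinase of the MAP kinase cascade (chr17:63622402-63622431, plus strand), at 1 to 320 and 1 to 170.
WDR26: gagcgcctggactccAttaggcagcagctg
ITGAV: ggcgctcaccccggcAgtccccagcctcag
MAP3K3: cgcgaccagcggtttGtttttcggagcgtt
In WT without a KO overlap, the start peak spanned bases 1 to 260 of MICAL1, an actin-oxidising monooxygenase (chr6:109465954-109465983, minus strand), and 1 to 230 of RASEF, a small GTPase (chr9:83063128-83063157, minus strand).
MICAL1: aacagaggagctccaTttagctacaagtac
RASEF: ggcgcttgggcgctcAgtcgcaggaggcgc
In KO without a WT overlap, it spanned bases 1 to 269 of WDR70 (chr5:37379303-37379332, plus strand), 1 to 240 of ST7L (chr1:112619127-112619156, minus strand), and 1 to 230 of ANKS1A, an adaptor of Eph receptors (chr6:34889240-34889269, plus strand).
WDR70: ttggcaagttcccctGcagttgtttgggct
ST7L: tccttctcccctcccAgctcctggcgcctg
ANKS1A: acgccggatcccggaAgtgacgcgctcgtg

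The peak maps of the 2 genotypes were alike in size, and about 2 in 3 peaks of each list had a counterpart in the other. A peak was called shared when at least 1 of its bases also lay in a peak of the other genotype, counted within a transcript. In WT, 4496 peaks (32.1%, 31.4 to 32.9) had no KO overlap, and in KO, 4302 peaks (31.1%, 30.3 to 31.8) had no WT overlap. These are the background shares for every count of unshared peaks that follows. Transcripts that had no KO peak at all held 2365 of these WT peaks, and transcripts that had no WT peak held 1949 of these KO peaks. On the 5611 transcripts peaked in both genotypes, 2131 of 11624 WT peaks (18.3%) and 2353 of 11903 KO peaks (19.8%) had no overlap. The unshared peaks on these transcripts were mostly not near misses. The gap to the closest peak of the other genotype had a median of 530 bases for WT peaks (quartiles 164 and 1321.5) and 554 bases for KO peaks (200 and 1335). The gap was at most 100 bases for 351 WT and 345 KO peaks, and over 1000 bases for 692 and 814. At the edge of the rule itself, 51 WT and 60 KO peaks were shared by 1 to 10 bases, while 85 WT and 76 KO peaks missed by 0 to 9 bases between.

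The lists formed 9315 pairs of peaks that were each other's best overlap. Pairs were chosen by overlap, so some nearness of their ends is built in. In these pairs the start moved by a median of 12 bases, the end by 11 and the centre by 12.5, and the shared stretch covered a median of 85% of the union. Both ends were identical in 162 pairs. The widest of these was on PMEPA1, which encodes an inhibitor of TGF-beta signalling, at bases 711 to 1305 in WT and in KO. NOTCH2, a receptor of the NOTCH pathway, had an identical peak at 7066 to 7525, MED1, a Mediator subunit, at 2821 to 3207, KLF13, a zinc finger transcription factor, at 1345 to 1660, HUWE1, a ubiquitin ligase, at 10415 to 10722, and RAB8B, a vesicle-trafficking GTPase, at 640 to 937. Neither genotype had systematically broader peaks by more than a few bases: the WT peak was the wider in 4879 pairs (52.4%) and the KO peak in 4061 (43.6%), with a median WT minus KO width of 2 bases. Most shared peaks met a single partner. In WT, 9017 overlapped 1 KO peak, 462 overlapped 2 and 14 overlapped 3, and in KO the counts were 9124, 419 and 7.

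Narrow peaks were the ones most often found in a single genotype. Shared peaks had a median width of 194 bases in WT and 191 in KO, and unshared ones 169 and 164. Among peaks of 100 bases, the narrowest width in the lists, 54.2% of 956 in WT and 51.6% of 820 in KO had no overlap. From 200 to 299 bases these shares were 23.8% and 20.8%. At 500 bases or more, 14 of 108 WT peaks and 9 of 80 KO peaks had none. A wider peak has more bases with which to meet another, so part of this order is built into the overlap rule. The share of peaks on transcripts with no peak of the other genotype at all was 23.5% in WT and 23.4% in KO at 100 bases and 14.1% and 10.3% at 200 to 299 bases. In WT it did not fall at every step between these widths.

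Along the transcript, the shares of the genotypes were furthest apart in the 5′ part. The position windows were not fixed in advance. Between bases 12 and 300, WT had 2001 peaks and KO 1700. Of these, 36.6% (34.5 to 38.7) in WT and 28.0% (25.9 to 30.2) in KO had no overlap, the background being 32.1% and 31.1%. Over bases 12 to 500, the numbers were 2718 and 2371 peaks, with 36.6% and 29.1% unshared. Between bases 501 and 1000, both genotypes stood near 33% (33.3% and 33.1%). From base 4001 on the order was turned, with 1628 WT and 1726 KO peaks, of which 27.4% and 30.9% had no overlap. The lists do not give transcript ends or the coding region, so peaks could not be placed relative to the stop codon.

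**Figure D1:**
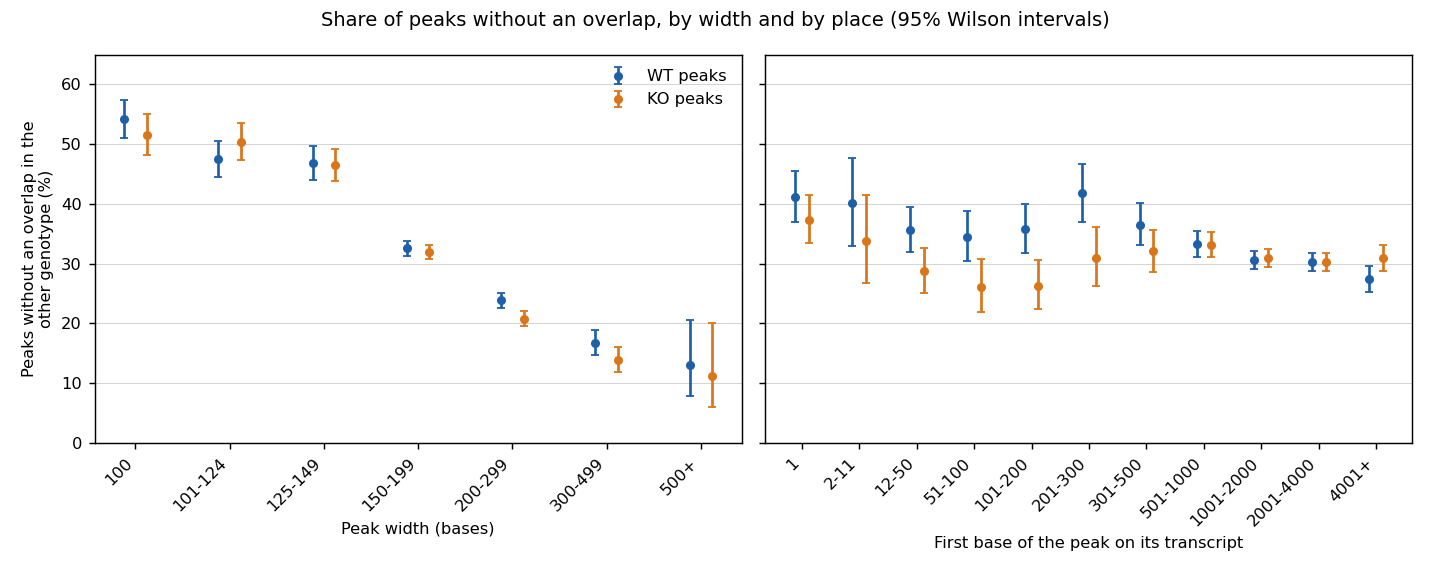
Share of peaks without an overlap in the other genotype (%) by peak width in bases (left) and by the first base of the peak on its transcript (right), for WT (blue) and METTL3 KO (orange), with 95% Wilson intervals that cover counting error alone. Both genotypes fall with width, from 54.2% and 51.6% at 100 bases to 23.8% and 20.8% at 200 to 299, while the WT points lie above the KO points in the first 500 bases.

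Peaks at the very start of transcripts, where the cap-adjacent mark lies, were about as many in KO as in WT. Peaks that began within 10 bases of base 1 numbered 672 in WT (4.80% of the list) and 708 in KO (5.11%), of which 505 and 551 began at base 1. They were narrow, with a median of 148 bases in WT and 140 in KO, against 188 and 185 elsewhere. Without an overlap were 275 in WT (40.9%, 37.3 to 44.7) and 259 in KO (36.6%, 33.1 to 40.2), against 31.7% and 30.8% of the peaks elsewhere. For 202 WT genes and 240 KO genes such a peak was the only one in that genotype.

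The genes with a start peak began with A somewhat more often than other genes with a peak, whichever genotype the peak came from. Only genes with a promoter sequence could be read. In WT these were 318 of the 394 genes with a shared start peak and 222 of the 271 without a KO overlap. The first base was A in 52.5% and 53.6% of them. In KO a sequence was at hand for 364 of 448 genes with a shared start peak and 205 of 259 without a WT overlap. Of these, 53.6% and 52.7% began with A. Of the 7517 genes with peaks but none at the start, 6094 had a sequence. Among those 6094, 44.9% began with A, close to the 44.3% of all 27305 promoters in the table. The motif GGACT, the leading form of the consensus of the METTL3 complex, was searched on the strand of the gene in the first 50 bases. It was present in 5.66% and 3.60% of the shared and the unshared WT class, in 4.95% and 3.41% of the KO classes, and in 4.87% of all promoters. A motif match is a description of the letters and not a methylated site. No longer transcript sequence was used here, so the motif content of internal peaks was not analysed here.

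Whole maps were often kept where both genotypes had a peak on a transcript. Of these 5611 transcripts, every peak of both lists was shared on 2766 (49.3%), and no peak was shared on 178 (3.17%). Among the 1655 with 1 peak in each genotype, the pair overlapped on 1549 (93.6%). Among the 1063 with at least 3 peaks in each, every peak was shared on 394 (37.1%). EP300, a histone acetyltransferase, and NOTCH2 each had 8 peaks in both genotypes, all shared. The transcripts of SRCAP, a chromatin remodeller, and ZNF106 had 7 shared peaks in each genotype, and those of RAPH1, ARHGEF17, FOXK1 and MYH9, the heavy chain of non-muscle myosin, had 6. At the other end, SEMA4D, a semaphorin, had 3 WT peaks and 2 KO peaks with no base in common. No transcript map of this kind was common where both genotypes had several peaks: 7 of 2588 transcripts with at least 2 peaks per genotype shared none. On transcripts with at least 3 peaks, the first peak had no overlap in 27.8% of WT cases (25.7 to 30.1), the last in 23.6% and those between in 20.3%. In KO the first, last and middle peaks stood at 24.0%, 24.7% and 24.9%.

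**Figure D2:**
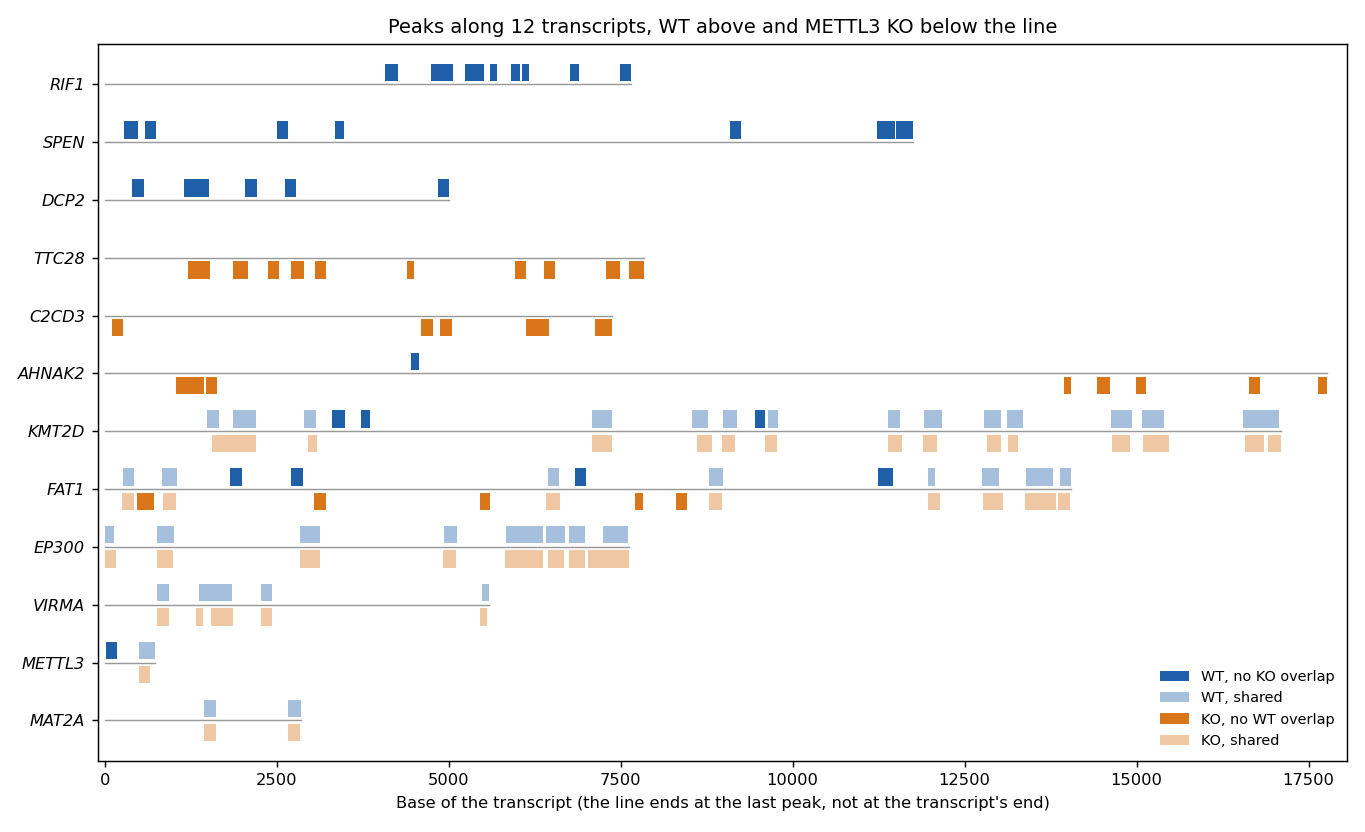
Peaks along 12 named transcripts, with bases along the transcript on the horizontal axis, WT peaks above each line and METTL3 KO peaks below it, dark where the other genotype has no overlap and light where it has one. RIF1, SPEN and DCP2 have WT peaks alone and TTC28 and C2CD3 KO peaks alone, while the 8 peaks of EP300 lie in the same places in both genotypes.

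At the gene level, 8538 genes had a peak in either list. Of these, 5564 (65.2%) had one in both, 1571 (18.4%) in WT alone and 1403 (16.4%) in KO alone. These 3 shares are the background for the gene groups described later. Genes found in a single genotype mostly rested on a single peak, 1072 of those in WT alone (68.2%) and 1026 of those in KO alone (73.1%), and that peak was under 150 bases wide for 347 and 388 of them. Genes with at least 3 peaks in 1 genotype and none in the other numbered 170 for WT and 114 for KO. The share of genes absent from the other list fell with the number of peaks. It was 31.2% of WT genes with 1 peak, 16.7% with 2, 11.6% with 3 and 4.43% (14 of 316) with 5 or more. For KO genes it was 31.1%, 13.3%, 8.68% and 1.10% (4 of 364). Of the 5564 genes with peaks in both, 2945 (52.9%) had the same number in each, 1208 (21.7%) had more in WT and 1411 (25.4%) more in KO. A difference of 3 or more peaks was seen in 153 (2.75%).

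**Figure D3:**
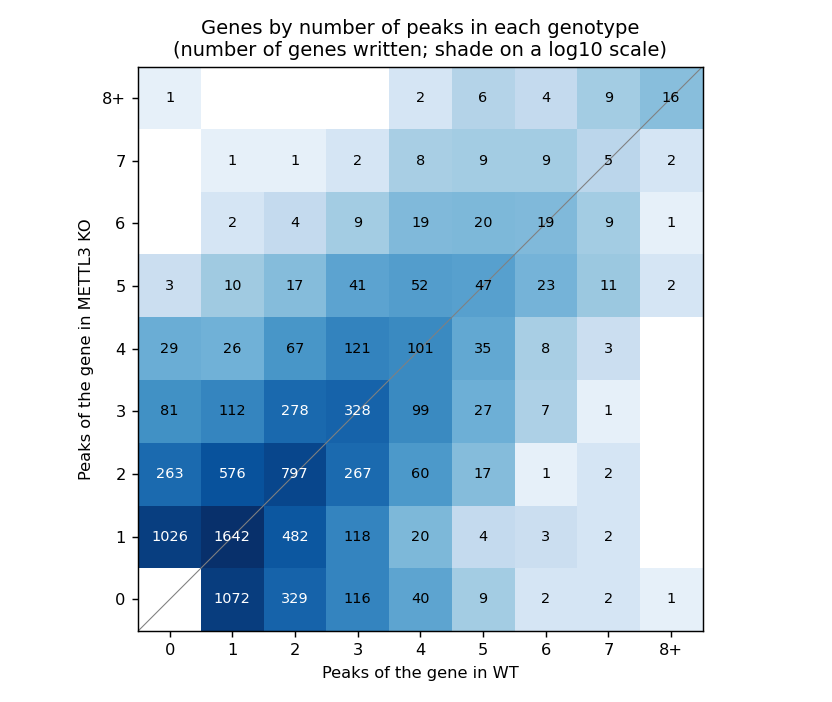
Number of genes by their number of peaks in WT (horizontal axis) and in METTL3 KO (vertical axis), with the count written in each square and the shade on a log10 scale. Counts gather along the diagonal of equal numbers, and most genes found in a single genotype have 1 peak there, 1072 in WT and 1026 in KO.

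The 10 genes with the most peaks in WT and none in KO had 5 to 8 peaks each. RIF1, which steers the choice of double-strand break repair (chromosome 2, 151409902 to 151534435, GRCh38), had 8 WT peaks, all between bases 4072 and 7654 of its transcript. SPEN, a transcriptional corepressor (chromosome 1, 15847707 to 15940456), had 7, spread from base 281 to base 11748. NFAT5, the osmotic stress transcription factor (chromosome 16, 69565966 to 69704654), also had 7, the first from base 1 to base 140. Its relative NFATC3, a calcium-responsive factor on the same chromosome, had 5. DCP2, which removes the cap from messengers (chromosome 5, 112976798 to 113022195), had 6 WT peaks over 1039 bases. MYH14, a non-muscle myosin heavy chain, also had 6. DOCK3, an exchange factor for small GTPases, PHLPP1, a phosphatase of AKT, SP4, a GC-box transcription factor, and UBN2, a histone chaperone subunit, had 5 each.

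The genes with the most peaks in KO and none in WT carried 4 or 5 peaks each, except for the first. TTC28 (chromosome 22, 27978014 to 28679840) had 10 KO peaks over 1897 bases, from base 1211 to base 7843. Its antisense neighbour TTC28-AS1 had 3 WT peaks and no KO peak. The loci overlap and how strand was used in counting is not stated in the sources used here, so reads of the pair cannot be told apart. XYLT1, a xylosyltransferase that starts proteoglycan chains (chromosome 16, 17101769 to 17470960), had 5 KO peaks. So did C2CD3, a centriole protein (chromosome 11, 74012718 to 74171002), and KDM2B, a histone H3 demethylase that recruits Polycomb to CpG islands (chromosome 12, 121408461 to 121582279). CHD2, a chromatin remodeller, SIK3, a salt-inducible kinase, GJC1, a connexin, TTI1, a cofactor of the PI3K-like kinases, ZNF776 and BNC2, both zinc finger proteins, had 4 each.

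Some transcripts kept a peak in both genotypes and differed by most of the others. PPARGC1B, a coactivator of mitochondrial genes, had 7 WT peaks and 1 KO peak, at 1363 to 1520. SSH2, a phosphatase of cofilin, also had 7 and 1, and the KO peak met its last WT peak by the bases from 4511 to 4554. TASOR2 and WDCP had 7 and 2, and KAT6B, a histone acetyltransferase, ZFHX3, a homeodomain factor, and ADCY9, an adenylyl cyclase, had 6 and 1.

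The opposite pattern was led by ASH1L, a histone H3 lysine 36 methyltransferase, with 4 WT peaks, all shared, and 10 KO peaks, of which 6 had no WT overlap. AHNAK2, a very large scaffold protein, had 1 WT peak at 4451 to 4570 and 7 KO peaks, none of them overlapping it. ARID5B, a DNA-binding cofactor, had 2 and 7, and CLSPN, the claspin adaptor of the replication checkpoint, 1 and 6. FAM225B had 1 and 6, ARHGEF12, a RhoA exchange factor, 3 and 7, TRPS1, a GATA-type repressor, 2 and 6, and CEP350, a centrosomal protein, 4 and 8. By contrast, the transcripts with the most peaks in all were near even. KMT2D, a histone H3 lysine 4 methyltransferase, had 18 WT and 14 KO peaks, and each of the KO peaks was shared. FAT1, an atypical cadherin, had 12 and 13, NIPBL, the cohesin loader, 13 and 12, RNF213, a ubiquitin ligase, 10 and 10, and TET3, which oxidises methylcytosine, 8 and 10.

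Wide peaks without a counterpart were rare on transcripts found in both lists. The widest in WT lay on FGFR1, a fibroblast growth factor receptor, at bases 235 to 790 and 2575 bases from its closest KO peak. PPP2R5E, a regulatory subunit of protein phosphatase 2A, had one at 32 to 575, also far from a KO peak at 1466 bases. The next ones were on KMT2B (505 bases wide), CSNK1G3 (491), TRIM2 (483) and SPRY4 (467). In KO, several of the widest lay next to or near a peak of the other genotype. TRPS1 had a KO peak at 3705 to 4246, next to a WT peak with 0 bases between, and TNS3, an adhesion adaptor, had one at 4672 to 5245 with 1 base between. The gap was 22 bases on ZZZ3 and 50 on ATXN1L, 299 on MAPK11 and 141 on DUSP8, a MAP kinase phosphatase. On the WT side, CSNK1G3 had such a gap of 50 bases.

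Most transcripts of the m6A machinery had peaks in both genotypes. Of 29 members with a peak, 25 had one in both genotypes, 0 in WT alone and 4 in KO alone, beside 65.2%, 18.4% and 16.4% of all genes. They carried 47 WT peaks, 8 of them unshared, and 58 KO peaks, 17 of them unshared. METTL3 itself had WT peaks at bases 13 to 180 and 500 to 725 and a KO peak at 501 to 662, so the 5′ peak was found in WT alone. The lists do not measure the level or integrity of a transcript, and the knockout could not be checked from them. METTL14 had a peak at 1331 to 1462 in WT and at 1247 to 1452 in KO, and WTAP had a peak at 1113 to 1390 and at 1114 to 1456. VIRMA had 4 WT and 5 KO peaks, all shared, and CBLL1 had 2 in each. RBM15 had a single KO peak, at 1691 to 1840. ZC3H13 and RBM15B had none in either list.

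Of 6 other RNA adenosine methyltransferases, METTL16 and PCIF1 had peaks, in both genotypes, and METTL5, ZCCHC4, TRMT112 and METTL4 had none in either list. MAT2A, the target of METTL16, had peaks at 1438 to 1620 and 2666 to 2856 in WT and at 1448 to 1620 and 2667 to 2844 in KO, so both were shared. METTL16 had 1 WT peak, at 1402 to 1775, and 3 KO peaks, of which the one at 3191 to 3290 was unshared. PCIF1, the cap adenosine methyltransferase, had a peak at 2299 to 2601 and at 2320 to 2604. In methyl donor supply, MTR, the methionine synthase, had 7 WT and 4 KO peaks, while AHCY, which clears the product S-adenosylhomocysteine, had 1 KO peak alone, at 1551 to 1726.

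Readers of the mark carried more peaks in KO, 27 against 19. Unshared were 11 of the KO peaks and 3 of the WT peaks, beside 31.1% and 32.1% of all peaks. Of 12 readers with a peak, 10 were in both genotypes, 0 in WT alone and 2 in KO alone (16.7%, beside 16.4% of all genes). YTHDF1, YTHDF2 and YTHDF3, the cytoplasmic readers linked to decay and translation, had 1 WT peak and 2 KO peaks each. For YTHDF1 the additional KO peak was at 941 to 1160, for YTHDF2 at 1667 to 1837 and for YTHDF3 at 2241 to 2420. FMR1, an RNA-binding translational regulator, had 3 peaks in KO alone and HNRNPA2B1, a nuclear RNA-binding protein, 2. The nuclear reader YTHDC1 went the other way, with 3 WT and 2 KO peaks, as did HNRNPC, with 2 and 1. Both demethylases were peaked in both genotypes, FTO with 2 and 2 and ALKBH5 with 1 and 2.

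Gene groups of DNA damage signalling and repair are set beside all genes, which had 18.4% in WT alone and 16.4% in KO alone. The groups are small, so a few genes set their shares, and differences among them were not tested. Of 22 p53 targets with a peak, 16 had one in both genotypes, 5 in WT alone (22.7%) and 1 in KO alone (4.5%). Unshared were 20 of their 47 WT peaks and 5 of their 33 KO peaks. The 20 and the 5 include every peak of the genes found in a single genotype. Among the 16 in both, 2 had more WT peaks, 2 more KO peaks and 12 equal numbers. Of the 22 p53 targets, 3 lie on chromosomes 8, 13 and 18, described further on. ZMAT3, an RNA-binding splicing regulator, had 5 WT peaks and 0 KO peaks, and TP53I3 had 1 WT peak. MDM2, the ubiquitin ligase of p53, had 3 peaks in each, in WT at 1304 to 1685, 3862 to 4071 and 4072 to 4314, and in KO at 1317 to 1619, 3860 to 4069 and 4070 to 4313. Of 32 checkpoint and break repair genes, 18 were in both, 9 in WT alone (28.1%) and 5 in KO alone (15.6%). Among the 18 in both, 3 had more WT peaks, 7 more KO peaks and 8 equal numbers. LIG4, the ligase of end joining, had 2 WT peaks and 0 KO peaks. XRCC4, its partner, had 1 KO peak of 108 bases and 0 WT peaks. PRKDC, the end-joining kinase, had 5 peaks in each genotype. Of the 32 checkpoint and break repair genes, 5 lie on chromosomes 8, 13 and 18, LIG4 among them. These chromosomes had fewer KO than WT peaks, as described further on. Of 14 translesion synthesis genes, 8 were in both, 4 in WT alone (28.6%) and 2 in KO alone (14.3%). REV3L, the catalytic subunit of polymerase zeta, had 4 WT peaks and none in KO, and its partner REV1 had 3 and 2. Of 22 excision repair genes, 15 were in both, 2 in WT alone (9.1%) and 5 in KO alone (22.7%). RAD23B, a partner of the damage sensor XPC, had 2 KO peaks and no WT peak, and ERCC2, a helicase of TFIIH, had 2. GTF2H2, with 1 KO peak, is listed under a copy-numbered transcript, 1 of several with the same accession, and is uncertain.

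Chromatin regulators were peak-rich, with 166 WT and 147 KO peaks on 41 genes. Of these, 32 were in both, 7 in WT alone and 2 in KO alone, and among the 32 there were 15 with more WT peaks, 9 with more KO peaks and 8 with equal numbers. Over all 41, those found in a single genotype included, the median WT minus KO number of peaks was 1, beside 0 over all genes with a peak. SMARCC2, a BAF complex subunit, had 3 WT peaks and none in KO, KDM4B, a histone demethylase, 2 and DNMT3B, a DNA methyltransferase, 2. Both KO-alone members were CHD remodellers, CHD2 and CHD9, with 4 peaks each. KMT2A had 8 peaks in each genotype. KLHL genes, which encode substrate adaptors of cullin ubiquitin ligases, had 43 WT and 29 KO peaks. Of 16 KLHL genes, 14 were in both, 2 in WT alone (KLHL9 with 4 peaks and KLHL24 with 2) and 0 in KO alone. KLHL21 had 4 and 2 peaks and KLHL42 5 and 3, while KLHL18 and KLHL29 had 3 and 4.

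Heat shock and unfolded protein response genes had more peaks in KO than in WT. Of 22 with a peak, 17 were in both, 0 in WT alone and 5 in KO alone (22.7%). All genes had 18.4% in WT alone and 16.4% in KO alone. The 22 had 28 WT peaks, of which 1 was unshared, and 41 KO peaks, of which 14 were. Of the 22, 10 are among the shortest genes, a class described further on in which KO-alone genes were more frequent (24.0%). ERN1, the IRE1 sensor of the endoplasmic reticulum, had 2 KO peaks and BAG3, a co-chaperone, had 2, at 1251 to 1462 and 1961 to 2064. The remaining KO-alone genes of the group rested on 1 peak each, of 100 to 117 bases. HSPH1, a large chaperone, had 2 WT peaks, at 309 to 515 and 2251 to 2440. The KO list had both of them (310 to 515 and 2229 to 2421) and 2 more, at 69 to 170 and 2821 to 2920. EIF2AK3, the PERK kinase, had 4 and 5. Immediate early genes showed little difference: of 19 with a peak, 18 were in both and 1 in WT alone, KLF10 with 2 peaks. BTG2, an antiproliferative factor, had 4 and 5 peaks, MCL1, a survival factor, 3 and 2, and NR4A1, a nuclear receptor, 2 and 3.

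In mRNA decay, DCP2 and PAN3 had the most peaks of the genes found in a single genotype, both in WT alone. DCP2 removes the cap, and PAN3 belongs to a nuclease that shortens the poly(A) tail. PAN3 had 4 WT peaks between bases 150 and 4130. Of 25 decay genes, 18 were in both, 3 in WT alone (12%, beside 18.4% of all genes) and 4 in KO alone (16%, beside 16.4%). SMG6, the endonuclease of nonsense-mediated decay, had 2 KO peaks and CNOT3 and CNOT4, subunits of the main deadenylase, 1 each, CNOT3 on a copy-numbered transcript and so uncertain. SMG1, the kinase of that pathway, had 7 and 8, and UPF1, its helicase, 5 and 4. Of 15 transcripts widely described as m6A carriers, 11 were in both. NEAT1, a nuclear noncoding RNA, had 3 KO peaks (14 to 140, 1591 to 1835 and 2011 to 2195) and no WT peak. CREBBP, an acetyltransferase, had 6 and 7.

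Cell cycle genes were divided about as all genes were: of 36 with a peak, 26 were in both, 4 in WT alone and 6 in KO alone. RB1, the retinoblastoma repressor of cell cycle entry, had 4 WT peaks and none in KO, and ANLN, a scaffold of cytokinesis, had 2 KO peaks and none in WT. CDK6, a kinase of early cell cycle, had 4 and 6 and CENPF, a kinetochore protein, 3 and 4. Of 37 members of TGF-beta, WNT and NOTCH signalling, 30 were in both, 4 in WT alone and 3 in KO alone. HEY1, a NOTCH target, and AXIN2, a WNT target, had 2 WT peaks and no KO peak, and JAG2, a NOTCH ligand, had 3 KO peaks and no WT peak. SMAD5 had 6 and 5 peaks, ZNRF3, a ubiquitin ligase that removes WNT receptors, 6 and 5, and NOTCH3 5 and 6.

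The cell line's lineage was visible in both lists. Of 17 osteoblast and bone matrix genes with a peak, 11 were in both, 3 in WT alone and 3 in KO alone. RUNX2, the osteoblast master factor, had 3 peaks in each genotype, COL5A1 had 3 in each, and LRP6, a WNT coreceptor, 7 and 8. COL5A2, another chain of collagen V, had 4 KO peaks and none in WT. No blood cell marker of 10 had a peak in either list. Among 10 epithelial markers, CLDN4 had 2 peaks in each genotype and KRT8 had 1 KO peak, and among 10 neuronal markers NEFL had 2 and 1, RBFOX3 1 WT peak and SLC17A7 1 KO peak.

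**Figure D4:**
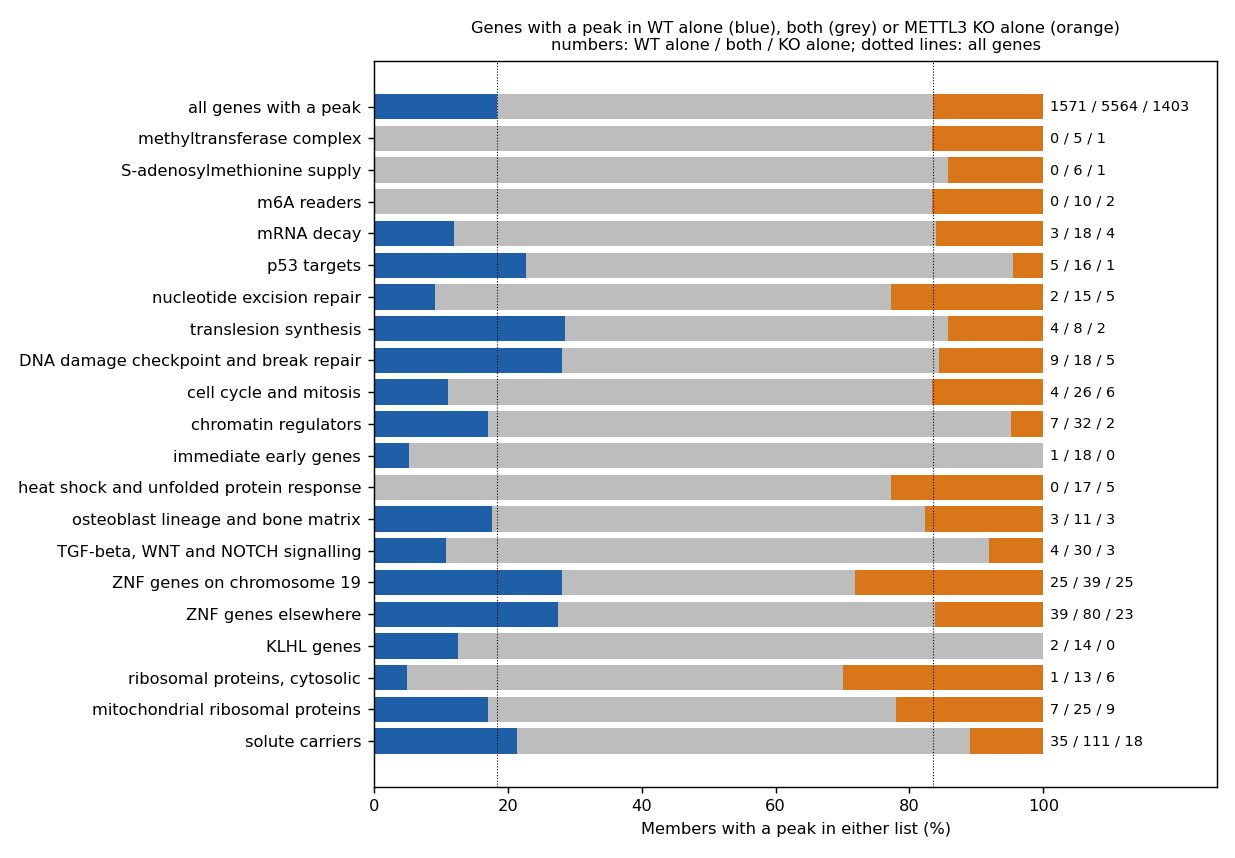
Members of each gene group with a peak in WT alone (blue), in both genotypes (grey) and in METTL3 KO alone (orange), as a percentage of the members with a peak in either list; the counts are written at the right and dotted lines mark all genes. Heat shock genes have 0 members in WT alone and 5 in KO alone, and immediate early and KLHL genes have 0 in KO alone.

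Short genes were found in KO alone more often than long ones. When the genes with a peak were divided by genomic length into 5 classes of equal size, 24.0% of the shortest class (up to 11695 bases) had a peak in KO alone, against 16.3%, 15.5%, 12.9% and 13.3% in the following ones. The share in WT alone stayed between 17.4% and 18.9%. The shortest class had 1865 WT and 2048 KO peaks, and the longest had 3664 and 3556. Of the 19 immediate early genes, 16 lay in the shortest class. Of 20 genes of cytosolic ribosomal proteins with a peak, a set narrowed after the symbol pattern had taken in kinases and pseudogenes, 18 lay there, and 13 were in both, 1 in WT alone and 6 in KO alone. RPLP0, a stalk protein of the large subunit, had 2 KO peaks, and RPS7 had 1. The part of gene length in the group counts was not tested.

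Peaks were also divided unequally by chromosome, a pattern chosen after its values were seen. The number of KO peaks over WT peaks was 0.801 on chromosome 8 (406 and 507), 0.806 on chromosome 13 (179 and 222) and 0.799 on chromosome 18 (171 and 214). On each of the other chromosomes it lay between 0.951 and 1.14, the highest being chromosome 22 (409 and 360). Of the 546 genes with a peak on chromosomes 8, 13 and 18, 26.2% (22.7 to 30.0) had it in WT alone and 12.5% (9.94 to 15.5) in KO alone, while the 7992 genes elsewhere stood at 17.9% and 16.7%. The KO-alone share was 10.8% on chromosome 8 and on chromosome 18, but 17.6% (23 of 131 genes) on chromosome 13. On chromosome 22 the order was turned, with 27 of 232 genes in WT alone and 49 in KO alone. The WT-alone genes of chromosomes 8, 13 and 18 came from most stretches of 20 Mb that held genes. They included SFRP1, a secreted WNT inhibitor on chromosome 8 (41261962 to 41309473), with 4 WT peaks between bases 41 and 1556. On the same chromosome, CLN8 (uncertain, on a copy-numbered transcript), SLC7A2, a transporter of cationic amino acids, and VCPIP1, a deubiquitinase, had 4 each. On chromosome 13 they included PAN3 and RB1, described above, and FOXO1, a forkhead factor, with 4. On chromosome 18, PHLPP1 had 5 and NEDD4L, a ubiquitin ligase, 4. The number of copies of these chromosomes in the cells and the RNA level of their genes were not analysed here, and their part in the pattern was not tested.

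**Figure D5:**
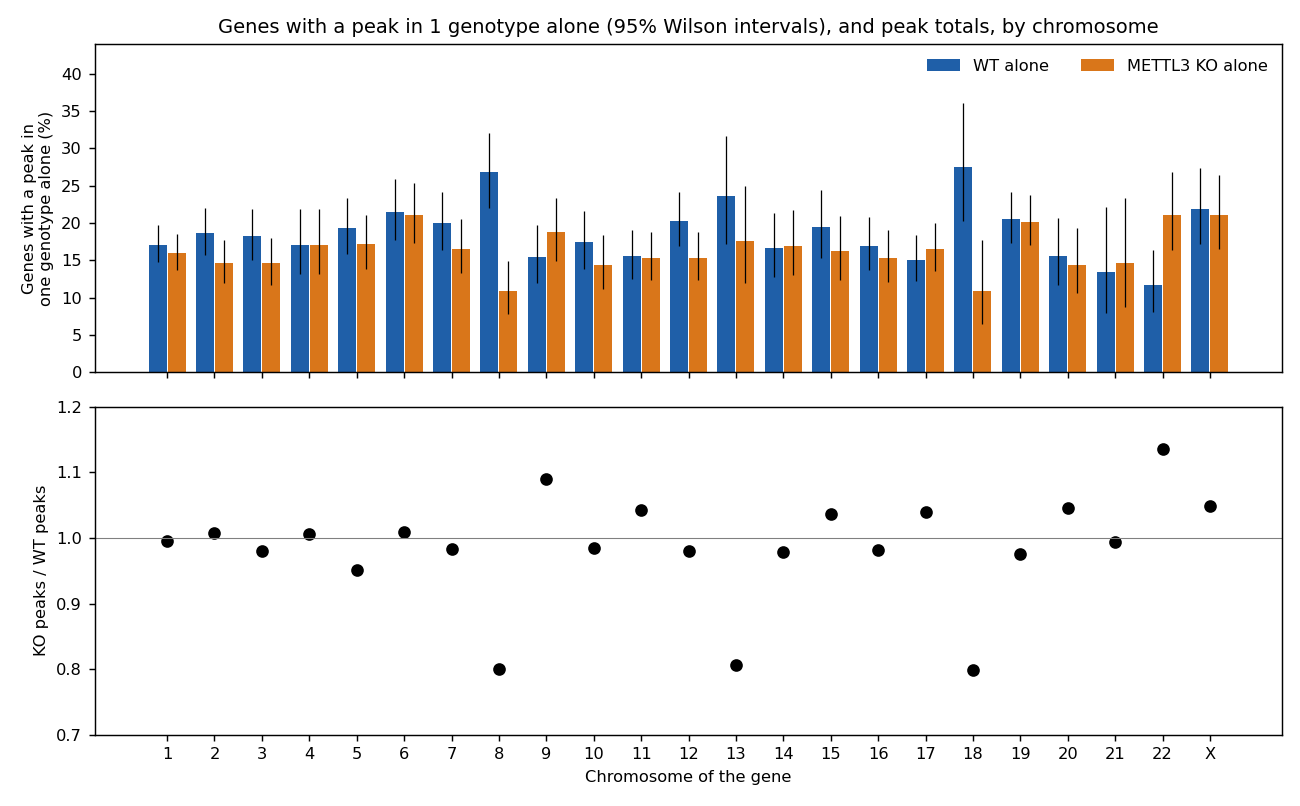
Upper plot: genes with a peak in WT alone (blue) and in METTL3 KO alone (orange) as a percentage of the genes with a peak on each chromosome, with 95% Wilson intervals. Lower plot: KO peaks divided by WT peaks; chromosomes 8, 13 and 18 lie at 0.801, 0.806 and 0.799, and the others between 0.951 and 1.14.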

How the data were processed

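IP and input libraries of U2OS cells were sequenced as 50-base single-end reads, per the labels' protocols. TopHat2 2.0.14 and build hg38 are named in the submitters' processing notes, as aligner and genome of the reads. How peaks were called and thresholded, how input and replicates entered, and which transcript release was used is not given in the sources used. The deposited lists hold no unit of signal (other): each entry is a transcript with the first and last base of a peak, counted here from 1 with both ends included, per the file's values. Their scores are empty, so no score was used.

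Overlaps were computed on the same transcript with Python 3.11.15, pandas 2.3.3 and numpy 2.4.6. Transcripts were matched to symbols and gene coordinates through the RefSeq table (GRCh38.p14); 148 WT and 110 KO peaks on unmatched transcripts stayed out of gene counts. Wilson intervals came from statsmodels 0.14.6. Scripts for the overlaps were checked on simulated peaks. No p-value was computed. The comparison, its 35 gene lists and the rule for named genes were chosen with earlier results of these data known, including results on some of the same groups. Named genes were those with most peaks in WT alone or KO alone (10 each), the largest differences in peak number (8 each way), the most peaks in all (6), the widest unshared peaks on transcripts in both (6 each) and the widest identical peaks (6), every m6A gene, and up to 6 members in each single genotype and 4 in both of every other list, with LOC, LINC and unnamed transcripts skipped. The transcripts in both lists with every or no peak shared and the genes by chromosome were chosen after their values were seen. Sequences were those of the 3 widest peaks from base 1 of each class, skipping copy-numbered and hyphenated names. Genes of chromosome 8 and genes without a promoter sequence were skipped there as well. A few genes that these rules select are not reported here. Alternatives changed the overlap rule, minimum width, start window, transcripts, chromosomes and unit counted.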

Additional observations from a re-analysis of the deposited data

How the results depend on the processing

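The shares of unshared peaks depended on the rule, in both genotypes alike. In WT and KO they were 33.9% and 33.0% when 50% of the shorter peak had to overlap, 38.5% and 37.9% when 50% of each had to, and 29.6% and 28.6% when a gap of up to 100 bases still counted. With peaks of at least 150 bases in the list counted they were 27.0% and 25.7%, and in both lists 34.2% and 33.0%. On transcripts in both lists they were 18.3% and 19.8%, and of bases covered 37.7% and 35.8% had no counterpart. Without chromosomes 8, 13 and 18, an alternative added after the data were seen, the WT share was 31.3%. Counting only genes with at least 2 peaks left 499 genes in WT alone and 377 in KO alone. The other 23 values kept within their counting interval or, for gene counts, close to the counts given above. No replicate could be left out. No paired analysis was possible because each genotype has 1 pooled list. Depth is unknown, so a missing peak is not evidence of a missing mark.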

Other observations

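ZNF genes, the large family of zinc finger repressors, were found in a single genotype more often than all genes were. In KO alone this held for those on chromosome 19 and not for those elsewhere. Of 231 with a peak, 119 were in both, 64 in WT alone and 48 in KO alone. All genes had 18.4% in WT alone and 16.4% in KO alone. On chromosome 19, where the family is clustered, 39 of 89 were in both, 25 in WT alone (28.1%) and 25 in KO alone (28.1%). Elsewhere 80 of 142 were in both, 39 in WT alone (27.5%) and 23 in KO alone (16.2%). ZNF561 had 5 WT peaks and none in KO, ZNF264 had 4, and ZNF776 had 4 KO peaks and none in WT. Many of these genes are alike in sequence, so reads may be divided between them. The 22 protocadherin and FAT genes, of which the clustered ones share exons and are uncertain, had 9 in both, 5 in WT alone and 8 in KO alone. Peaks on noncoding transcripts were unshared in 45.6% of 320 WT and 44.7% of 322 KO cases. Of 41 LINC, SNHG and microRNA host genes, 16 were in both, 12 in WT alone and 13 in KO alone, and MIR22HG had 2 and 3 peaks.

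Of 164 solute carriers, 111 were in both, 35 in WT alone (21.3%, beside 18.4% of all genes) and 18 in KO alone (beside 16.4% of all genes). Among the 111 in both, 25 had more WT peaks and 32 more KO peaks. SLC9A2, a sodium-proton exchanger, had 3 WT peaks alone, SLC31A1, a copper importer, had 2 KO peaks alone, and SLC5A3, a myo-inositol transporter, had 8 in each. Of 27 kinesins, 21 were in both, 5 in WT alone and 1 in KO alone, but KIF24 had 2 WT and 6 KO peaks and KIF14 6 and 5. Of 33 TRIM ubiquitin ligases, 20 were in both, 5 in WT alone and 8 in KO alone, TRIM38 having 3 KO peaks alone. RAB genes (26, 10 and 6 of 42 in both, WT alone and KO alone), F-box genes (26, 9 and 5 of 40), USP genes (31, 5 and 4 of 40), ZBTB genes (17, 6 and 3 of 26), collagens (10, 3 and 3 of 16) and mitochondrial ribosomal proteins (25, 7 and 9 of 41) complete the families. Of 33 translation initiation factor genes other than kinases, 28 were in both, 2 in WT alone and 3 in KO alone, and EIF3A, a scaffold of the initiation complex, had 6 peaks in each.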
